A study of Mus musculus with 4 samples.

Results

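Toll-like receptors are membrane proteins that sense molecules of microbes or of damaged cells. The genes described here were picked by symbol from the deposited expression table. They are Tlr1, Tlr2, Tlr3, Tlr4, Tlr6, Tlr7, Tlr8, Tlr9, Tlr11 and Tlr13, 10 of the 13976 genes in that table, and all 10 had a row. Tlr5 and Tlr12, the remaining symbols of the family in the table, are described beside them. RNA was sequenced from 4 myeloid populations sorted from tumours of EO771, a mouse mammary carcinoma cell line. These were dendritic cells (DC) with intermediate CD103 and with CD11b (CD103int DC), CD103+ conventional DC of type 1 (cDC1), CD11b+ conventional DC of type 2 (cDC2), and macrophages, with 1 library each. The study's title concerns heterodimeric interleukin-15 given near the tumour and the CD103int DC that accumulate there. For mouse strain, age, number of animals, sort gates and treatment of these tumours, the sources used here give no entry.

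Receptors of the family fall into those of the cell surface and those of endosomes. Tlr2 pairs with Tlr1 or Tlr6 to bind bacterial lipopeptides, and Tlr4, with its partner MD-2 (gene Ly96) and the co-receptor Cd14, binds lipopolysaccharide. The endosomal receptors mostly read nucleic acids: Tlr3 double-stranded RNA, Tlr7 single-stranded RNA, Tlr9 DNA with unmethylated CpG and Tlr13 bacterial ribosomal RNA. Mouse Tlr11 binds profilin of protozoan parasites, and Tlr8 is a close relative of Tlr7. Ligand binding recruits adaptors with a TIR domain, Myd88 for most receptors and Ticam1 (TRIF) for Tlr3 and endosomal Tlr4, and leads to NF-kappaB and interferon regulatory factors. In mouse lymphoid organs, cDC1 are known for Tlr3 and Tlr11.

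Levels are counts per 1000000 reads (CPM) as scaled by the authors. The columns stood for about 56.0 (CD103int DC), 44.4 (cDC1), 44.9 (cDC2) and 63.8 (macrophage) times 1000000 estimated reads. A range in parentheses is a 95% interval from counting error on these reads, not from differences between animals or sorts, since no population had a replicate library. Differences were therefore not tested. A gene was counted as different when its log2(CPM + 1) values were 1 or more apart (2-fold) and at least 1 of the libraries had 1 CPM or more. The column name of the macrophage library starts differently from the 3 DC columns, and what this marks is not given in the sources used here. The CD103int DC, cDC1, cDC2 and macrophage libraries had a summed level of 277, 1086, 329 and 310.4 CPM over 7 cDC1 markers. Most of each sum was Irf8, at 193, 704, 226 and 268 CPM. By the 2-fold rule, 5 of the 7 were higher in cDC1 than in cDC2 (8% of all genes). Batf3 stood at 16.2 CPM in the CD103int DC and 16.1 in cDC1, and Cadm1 at 87.6 in cDC1 and 73.6 in cDC2. Over 9 macrophage markers, the sums were 2178, 652, 3656 and 3250 CPM in the same order of libraries. The cDC2 sum above that of macrophages came from the complement genes C1qa, C1qb and C1qc, at 572, 631 and 450.5 CPM in cDC2 against 105, 137 and 88.4 CPM in macrophages. Over the 9 macrophage markers, the median difference of cDC2 from macrophages was -0.35 on log2(CPM + 1). Adgre1 (262 against 335 CPM), Csf1r (1096 against 1538 CPM), Fcgr1, Maf and Gpnmb were lower in cDC2, each within the 2-fold limit. Mertk went the other way, like the complement genes, at 32.6 CPM in cDC2 against 17.6 in macrophages, also within the 2-fold limit. By the 2-fold rule, 0 of the 9 were lower in cDC2 (4.66% of all genes) and 3, the complement genes, were higher (2.45%).

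The family showed 3 patterns over the libraries. Of the 10 genes, 8 had their highest level in macrophages, where 31.8% of all genes with at least 1 CPM had theirs. Tlr3 and Tlr11 were highest in cDC1, where 34% of all genes were highest. Tlr1, Tlr2, Tlr4, Tlr6, Tlr7, Tlr8 and Tlr13 were lowest in cDC1, against 36.9% of all genes. Tlr9 stood apart from both groups, with its lowest level in the CD103int DC (16.6% of all genes were lowest there). None of the 10 was highest in the CD103int DC or in cDC2, where 18.3% and 15.9% of all genes were. Tlr3 was lowest in cDC2 (15.5% of all genes) and Tlr11 in macrophages (31%). With columns rescaled to equal totals, cDC2 in place of macrophages held the highest level of Tlr1, Tlr4 and Tlr6, by less than 1.5-fold. All 10 genes differed at least 2-fold between their highest and lowest library, against 33.9% of all genes, and the median of this range on log2(CPM + 1) was 2.54 for the family and 0.74 for all genes. With the cDC1 library left out, 4 of the 10 genes (Tlr2, Tlr7, Tlr9 and Tlr13) still did, against 13.9% of all genes. Leaving out the macrophage library instead kept 9 of 10 (22.5% of all genes), the exception being Tlr9. In sorted bulk samples, fewer cells with a transcript and less of it per cell cannot be told apart.

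**Figure D1:**
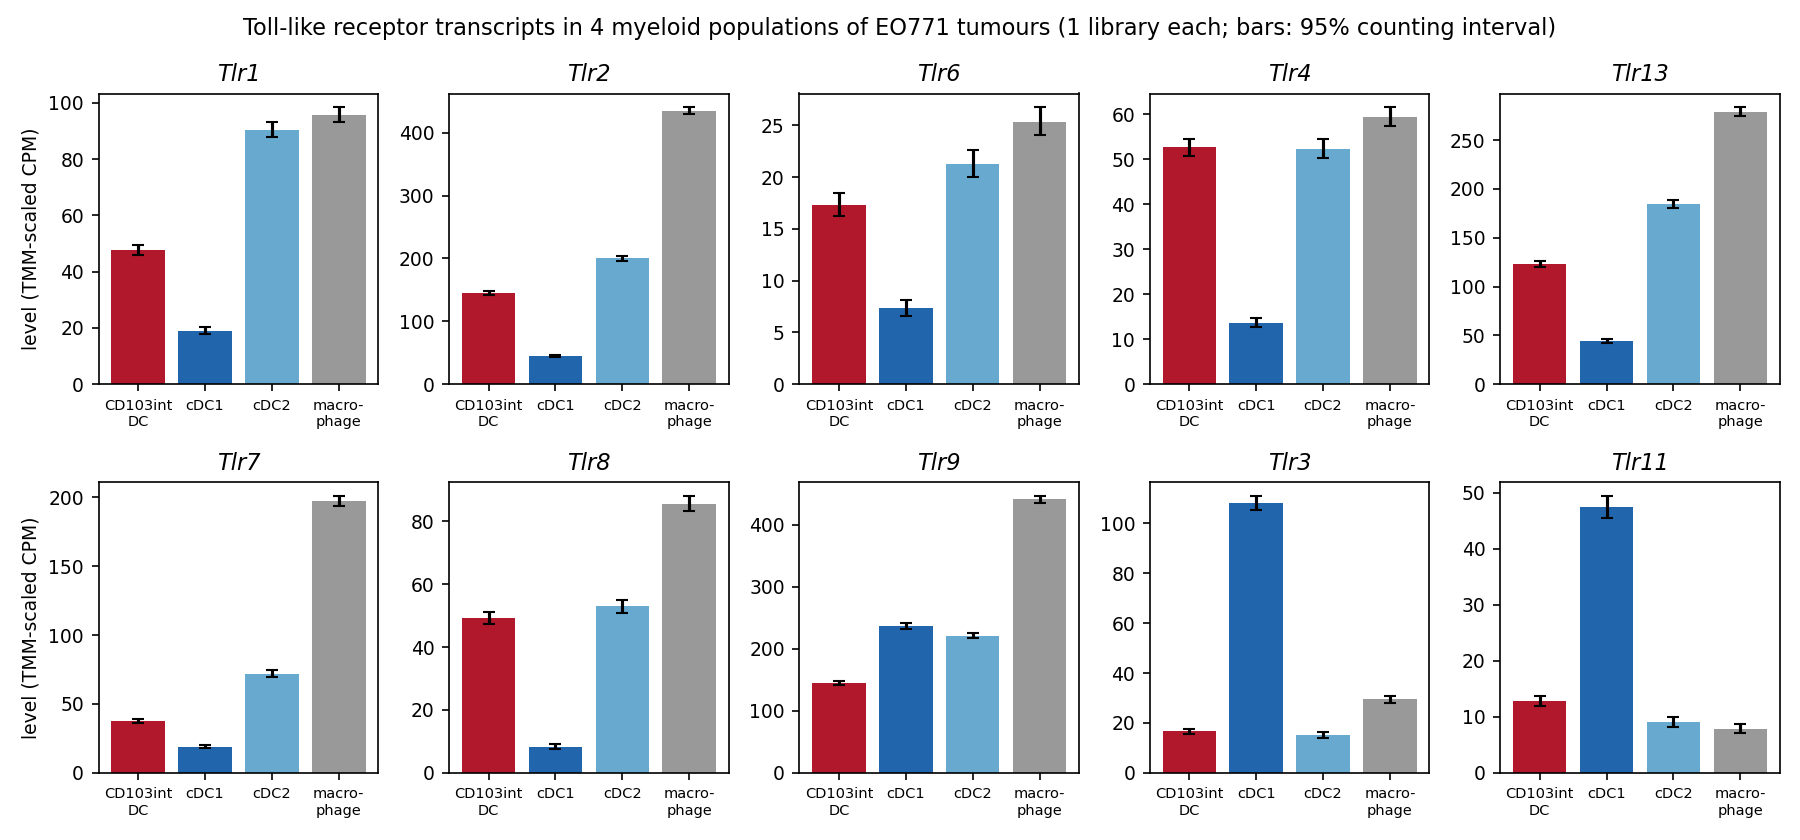
Level of each Toll-like receptor gene (TMM-scaled CPM, linear axis from 0, scaled per panel) in 1 library of each population, with 95% counting intervals as error bars. Bars for Tlr3 and Tlr11 are tallest in cDC1, at 108 and 47.5 CPM, while the other 8 genes are highest in macrophages as scaled by the authors (for Tlr1, Tlr4 and Tlr6, in cDC2 with columns rescaled to equal totals).

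Promoter sequences are shown for members of each pattern: Tlr3 and Tlr11, the pair highest in cDC1, Tlr9, the gene that cDC1 and cDC2 held at a like level, and Tlr2, a gene low in cDC1. Each is the 250 bases before a RefSeq transcription start, 5′ to 3′ on the gene's strand (RefSeq, GRCm38.p6). Capitals mark matches, on either strand, to the letters searched for.
Tlr3: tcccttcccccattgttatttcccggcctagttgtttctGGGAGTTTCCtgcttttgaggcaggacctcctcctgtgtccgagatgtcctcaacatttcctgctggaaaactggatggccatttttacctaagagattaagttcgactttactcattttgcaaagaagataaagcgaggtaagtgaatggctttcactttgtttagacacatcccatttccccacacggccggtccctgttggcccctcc
Tlr11: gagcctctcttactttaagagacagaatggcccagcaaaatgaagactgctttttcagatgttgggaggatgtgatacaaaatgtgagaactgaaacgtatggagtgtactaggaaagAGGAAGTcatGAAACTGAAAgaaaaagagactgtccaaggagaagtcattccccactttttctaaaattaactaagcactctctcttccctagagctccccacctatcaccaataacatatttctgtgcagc
Tlr9: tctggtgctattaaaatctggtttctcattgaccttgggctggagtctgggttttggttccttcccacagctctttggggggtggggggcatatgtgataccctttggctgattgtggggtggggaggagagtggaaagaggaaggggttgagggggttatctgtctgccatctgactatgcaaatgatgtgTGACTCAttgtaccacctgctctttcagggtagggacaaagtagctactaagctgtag
Tlr2: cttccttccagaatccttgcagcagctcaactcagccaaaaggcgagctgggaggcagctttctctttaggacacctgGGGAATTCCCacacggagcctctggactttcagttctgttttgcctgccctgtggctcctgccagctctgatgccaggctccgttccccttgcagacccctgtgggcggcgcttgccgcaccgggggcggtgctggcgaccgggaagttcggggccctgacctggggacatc
These windows are chr8:45410381-45410630 (minus strand) for Tlr3, chr14:50357664-50357913 (plus strand) for Tlr11, chr9:106222348-106222597 (plus strand) for Tlr9 and chr3:83841609-83841858 (minus strand) for Tlr2. The letters searched were AGGAAGT (PU.1), GGAA and GAAA with 2 bases between them (a composite of ETS and interferon regulatory factors), GAAA and GAAA with 2 bases between them (the interferon-stimulated response element), GGGAN directly before TTNCC (NF-kappaB) and TGANTCA (AP-1), of which the second and the third can overlap. Among 32851 promoter windows of all genes, 7.69%, 2.30%, 2.98%, 0.980% and 6.75% held a match, in that order. Counted from the start site, Tlr11 held AGGAAGT at -132 and the interferon element letters at -122. Tlr3 and Tlr2, which had opposite patterns, both held the NF-kappaB letters, at -211 and -172. Tlr9 held the AP-1 letters at -58. Of the windows not printed, 1 of Tlr1 held AGGAAGT at -22, and 1 of Tlr6 held it at -62 and the interferon element letters at -116 and -110. RefSeq windows were found for 8 of the 10 genes, and the matches of Tlr3 and Tlr11 differed. A match describes the letters of a window and is no evidence of binding.

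Among the surface receptors, the lipopeptide receptor genes were far lower in cDC1 than in the other 3 libraries. Coordinates of genes are from GENCODE M21 on GRCm38. Tlr2 (ENSMUSG00000027995.10, chromosome 3, 83836272 to 83841767, minus strand) stood at 144.7 (142 to 148) CPM in the CD103int DC, 45.4 (43.5 to 47.3) in cDC1, 200.4 (196.3 to 204.5) in cDC2 and 434.8 (429 to 440.3) in macrophages. No 2 of these intervals overlapped. Its level in the CD103int DC was 3.19-fold (3.04 to 3.34) that of cDC1, and 3.0-fold (2.93 to 3.08) lower than in macrophages. Against cDC2 it was 1.38-fold lower in the CD103int DC, within the 2-fold limit. Genes outside the family with the most similar profile over the 4 libraries, by the distance between centred log2(CPM + 1) values, were Tmem38b, Gbp9, an interferon-induced GTPase, and Slc16a10, at distances of 0.11, 0.14 and 0.15.

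Tlr1 and Tlr6, the partners of Tlr2, are neighbours on chromosome 5, with 18467 bases between them. Tlr1 (64924679 to 64933563, minus strand) had 47.8 CPM in the CD103int DC, 19.0 in cDC1, 90.5 in cDC2 and 95.8 in macrophages. The cDC2 and macrophage values lay within 1.06-fold of each other, and the order of these libraries turned round when columns were rescaled to equal totals. Tlr6 (64952031 to 64960097, minus strand) was the lowest of the 4 surface members (Tlr1, Tlr2, Tlr4 and Tlr6), per kilobase of exon too, at 17.3, 7.36, 21.3 and 25.4 CPM in the same 4 libraries. Both genes passed the 2-fold limit for the CD103int DC over cDC1, by 2.51-fold (2.33 to 2.71) for Tlr1 and 2.35-fold (2.08 to 2.66) for Tlr6. Reads of this pair can be split between them: 13.6% of the 50-base stretches in Tlr1 transcripts and 12.3% of those in Tlr6 transcripts occurred in the other gene. Tlr1 and Tlr6 were the only members whose estimated reads were not whole numbers, for example 931.8 and 361.2 in cDC1. The other 8 members had whole reads in every library. Closest in profile to Tlr1 were Tmem86a, Tgfbr1 and B3gnt8, at distances of 0.13, 0.13 and 0.15, and to Tlr6 were Slc35b3, Sirpa and Epb41l2, at 0.05, 0.06 and 0.08.

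Tlr4 differed from Tlr1 and Tlr2 in being level outside cDC1. The gene lies on chromosome 4 (66827584 to 66930284, plus strand). Its level was 52.6 (50.8 to 54.5) CPM in the CD103int DC, 13.7 (12.7 to 14.8) in cDC1, 52.4 (50.3 to 54.5) in cDC2 and 59.5 (57.4 to 61.6) in macrophages. The ratio of the CD103int DC to cDC2 was 1.0 (0.952 to 1.06), and among the steps between neighbouring levels of the 10 genes it was the single one whose counting interval held 1. Against cDC1 the CD103int DC level was 3.84-fold (3.53 to 4.18) higher. With columns rescaled to equal totals, its small difference from macrophages turned round in both the CD103int DC and cDC2. Ly96, whose product binds lipopolysaccharide beside Tlr4, followed at low levels of 3.55, 0.938, 4.85 and 5.81 CPM in the CD103int DC, cDC1, cDC2 and macrophages. Cd14, which hands lipopolysaccharide to this complex, had 250.6 CPM in the CD103int DC, 41.0 in cDC1, 228 in cDC2 and 594 in macrophages. Per kilobase of exon, Cd14 exceeded Tlr4 by 15.3-fold in the CD103int DC, 9.58-fold in cDC1, 14.0-fold in cDC2 and 32.1-fold in macrophages. Of 5 measured co-receptor genes of 7, 3 (Cd14, Ly96 and Cd36) were at least 2-fold above cDC1 in the CD103int DC, 1 (Cd36) was above macrophages and 1 (Cd14) below them. Of all genes, 10.1%, 5.17% and 6.62% passed in these directions. None of the 5 passed the limit against cDC2, where 1.95% of all genes did as higher and 0.986% as lower, so that 0 of 5 is near the background. Cd36, a scavenger receptor that aids Tlr2 and Tlr6, was highest in the CD103int DC, at 188 CPM against 65.6 in cDC1, 162 in cDC2 and 89.3 in macrophages. Cd180, a relative of Tlr4 without a signalling domain, had 162, 82.1, 208 and 241 CPM in these libraries. Closest in profile to Tlr4 were Scamp1, Tmem104 and Gas2l3, at distances of 0.03, 0.06 and 0.17.

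Of the endosomal receptors, Tlr13, Tlr7 and Tlr8 shared the low level in cDC1. Tlr13 (chromosome X, 106143204 to 106160493, plus strand) had 123 (120.2 to 126) CPM in the CD103int DC, 44.3 (42.5 to 46.2) in cDC1, 184 (180.3 to 188) in cDC2 and 279 (275 to 284) in macrophages. These values followed the same order as those of Tlr1, Tlr2, Tlr6, Tlr7 and Tlr8. Within the family, Tlr1 and Tlr13 had the most similar profiles, at a distance of 0.38 between centred log2(CPM + 1) values. Against cDC1 the CD103int DC level of Tlr13 was 2.78-fold (2.65 to 2.92) higher, and it was 2.27-fold (2.20 to 2.33) lower than that of macrophages. With columns rescaled to equal totals, the difference from macrophages fell within 2-fold. The nearest profiles outside the family were those of AB124611, Rhob and Tmem51, at distances of 0.14, 0.14 and 0.17.

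Tlr7 and Tlr8 lie beside each other on chromosome X, 40599 bases apart, both on the minus strand, but their levels did not run in parallel. Tlr7 (167304929 to 167330558) stood at 37.4 (35.8 to 39.0) CPM in the CD103int DC, 18.9 (17.7 to 20.2) in cDC1, 71.8 (69.4 to 74.3) in cDC2 and 197 (194 to 201) in macrophages. Tlr8 (167242696 to 167264329) stood at 49.2 (47.4 to 51.0), 8.32 (7.53 to 9.17), 52.9 (50.9 to 55.1) and 85.6 (83.2 to 88.1) CPM in these libraries. The CD103int DC held Tlr7 at 5.27-fold (5.04 to 5.53) below macrophages, the widest gap of any member between these 2 libraries, and Tlr8 at 1.74-fold (1.66 to 1.82) below. Per kilobase of exon, the ratio of Tlr7 to Tlr8 was 0.668 in the CD103int DC, 2.0 in cDC1, 1.19 in cDC2 and 2.03 in macrophages. Only the CD103int DC library had more Tlr8 than Tlr7 by this measure. Relative to cDC1, Tlr8 was 5.91-fold (5.33 to 6.57) higher in the CD103int DC, whereas Tlr7 was 1.98-fold (1.83 to 2.14) higher, just within the limit on log2(CPM + 1). Nearest in profile to Tlr7 were Ccl4, Gm9845 and Mefv, at distances of 0.23, 0.25 and 0.28; Ccl4 encodes a chemokine and Gm9845 is a processed pseudogene. Nearest to Tlr8 were Vegfa, Rasgrp1 and Atxn1, at 0.09, 0.12 and 0.14.

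Monocyte marker RNA was also highest in the macrophage library, with 6 of 6 markers measured and sums of 1176, 1346, 1232 and 4707 CPM in the CD103int DC, cDC1, cDC2 and macrophages. Neutrophil markers were measured for 2 of 6 genes, at sums of 35.4, 9.99, 63.9 and 158 CPM, nearly all of it Csf3r. Their part in the macrophage levels of Tlr2, Tlr7 and Tlr13 was not tested.

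Per kilobase of exon, Tlr9 was first or second among the members in every library. The gene (chromosome 9, 106222598 to 106226883, plus strand) had 144.2 (141 to 147) CPM in the CD103int DC, 237 (233 to 241) in cDC1, 221 (217 to 225) in cDC2 and 441 (436 to 447) in macrophages. Unlike the other receptors high in macrophages, it was not low in cDC1, which stood 1.07-fold (1.04 to 1.10) above cDC2. The CD103int DC held the lowest level, 1.64-fold (1.60 to 1.69) below cDC1, 1.53-fold (1.49 to 1.58) below cDC2 and 3.06-fold (2.98 to 3.14) below macrophages. Of these steps, that from macrophages passed the 2-fold limit. The closest profiles outside the family were those of Rgl1, of Trex1, a DNA exonuclease, and of Uba7, the enzyme that activates ISG15, at distances of 0.14, 0.15 and 0.16.

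The cDC1 library held RNA of plasmacytoid DC markers, and plasmacytoid DC are a cell type known for Tlr7 and Tlr9. Of 7 such markers 4 were measured, and their summed level was 68.6 CPM in the CD103int DC, 599 in cDC1, 77.2 in cDC2 and 118 in macrophages. Most of it was the transcription factor gene Tcf4. Siglech, a receptor gene of that cell type, stood at 0.366, 15.0, 1.38 and 0.733 CPM in these libraries. B cell markers were measured for 2 of 6 genes and summed to 2.02, 9.09, 4.12 and 4.64 CPM. The part of such cells in the cDC1 level of Tlr9 was not tested.

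Tlr3 and Tlr11 ran opposite to the rest of the family. Tlr3 (chromosome 8, 45395665 to 45411080, minus strand) stood at 16.7 (15.6 to 17.7) CPM in the CD103int DC, 108 (105 to 111) in cDC1, 15.0 (13.9 to 16.2) in cDC2 and 29.4 (28.0 to 30.9) in macrophages. The cDC1 value lay above all others, by 6.49-fold (6.06 to 6.96) over the CD103int DC. Against cDC2 the CD103int DC level was 1.11-fold (1.0 to 1.22) higher, a step close to counting error. An antisense gene, Gm45542, overlaps 381 exon bases of Tlr3 on the other strand. The library kit marked strand, but how strand was used in counting is not given in those sources. Nearest to Tlr3 in profile were Gpr183, a receptor for oxysterols that guides DC in the spleen, Plxdc1 and Tcf4, at distances of 0.21, 0.29 and 0.32. Tcf4 is 1 of the plasmacytoid DC markers above, whose part in the cDC1 level of Tlr3 was not tested.

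Tlr11 (chromosome 14, 50357914 to 50363663, plus strand) had 12.8 (11.9 to 13.8) CPM in the CD103int DC, 47.5 (45.6 to 49.5) in cDC1, 9.03 (8.19 to 9.94) in cDC2 and 7.86 (7.13 to 8.64) in macrophages. As scaled by the authors, it was the single member with a higher level in the CD103int DC than in macrophages, by 1.63-fold (1.44 to 1.84), which is within the 2-fold limit. With columns rescaled to equal totals Tlr4 joined it, by 0.08 on log2(CPM + 1). Against cDC1 the CD103int DC value was 3.71-fold (3.41 to 4.04) lower, and against cDC2 it was 1.42-fold (1.26 to 1.60) higher. Its partner in profilin sensing, Tlr12, did not share this profile. Tlr12 had 8.88 CPM in the CD103int DC, 22.3 in cDC1, 20.3 in cDC2 and 5.11 in macrophages, so that cDC2 was near cDC1 for Tlr12 but not for Tlr11. Per kilobase of exon, the ratio of Tlr11 to Tlr12 was 1.40 in the CD103int DC, 2.07 in cDC1, 0.432 in cDC2 and 1.49 in macrophages. Tlr5, the flagellin receptor, was low in all libraries, at 4.56, 10.2, 6.55 and 16.3 CPM. Closest to Tlr11 in profile were Ptk2, which encodes focal adhesion kinase, Serpinf1 and Hs3st3b1, at distances of 0.18, 0.20 and 0.20.

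Set pair by pair, the CD103int DC differed most from cDC1. Of the 10 genes, 6 were higher in the CD103int DC by the 2-fold rule (10.1% of all 12943 genes compared) and 2 were lower (6.77%). The 6 were Tlr1, Tlr2, Tlr4, Tlr6, Tlr8 and Tlr13, and the 2 were Tlr3 and Tlr11. The median difference of the family was 1.21 on log2(CPM + 1), beside 0.01 for all genes. Members ran from -2.63 (Tlr3) to 2.43 (Tlr8). With columns rescaled to equal protein-coding totals, Tlr6 fell within 2-fold.

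Against cDC2, none of the 10 genes passed the 2-fold limit in the CD103int DC, in either direction, where 1.95% of all 12682 genes passed it as higher and 0.986% as lower. Most members were nevertheless somewhat lower: 7 of 10 lay below 0, with a median of -0.37 beside 0.00 for all genes. Tlr7 (1.92-fold lower, 1.82 to 2.03) and Tlr1 (1.90-fold lower, 1.81 to 1.99) came nearest to the limit. Tlr11, Tlr3 and Tlr4 lay above 0, by 0.46, 0.14 and 0.01, and Tlr4 turned to the other side of 0 when columns were rescaled to equal totals.

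Against macrophages, 4 of 10 genes in the CD103int DC were lower by 2-fold or more (6.62% of 12622 genes) and none was at least 2-fold higher (5.17%). The 4 were Tlr2, Tlr7, Tlr9 and Tlr13. Tlr5, outside the 10, was also at least 2-fold lower, at 4.56 against 16.3 CPM. The median of the family was -0.89, beside 0.00 for all genes, and 9 of 10 members lay below 0. Tlr1 fell just short, at -0.99. Rescaling columns to equal totals moved the median of all genes in this pair to 0.24 and that of the family to -0.63. It left 3 of the 4 (Tlr2, Tlr7 and Tlr9), against 4% of all genes. Tlr1 joined the 4, for a count of 5, with median-ratio scaling of the columns (6.82% of all genes). The same 5 passed with a pseudocount of 0.1 (8.53%).

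**Figure D2:**
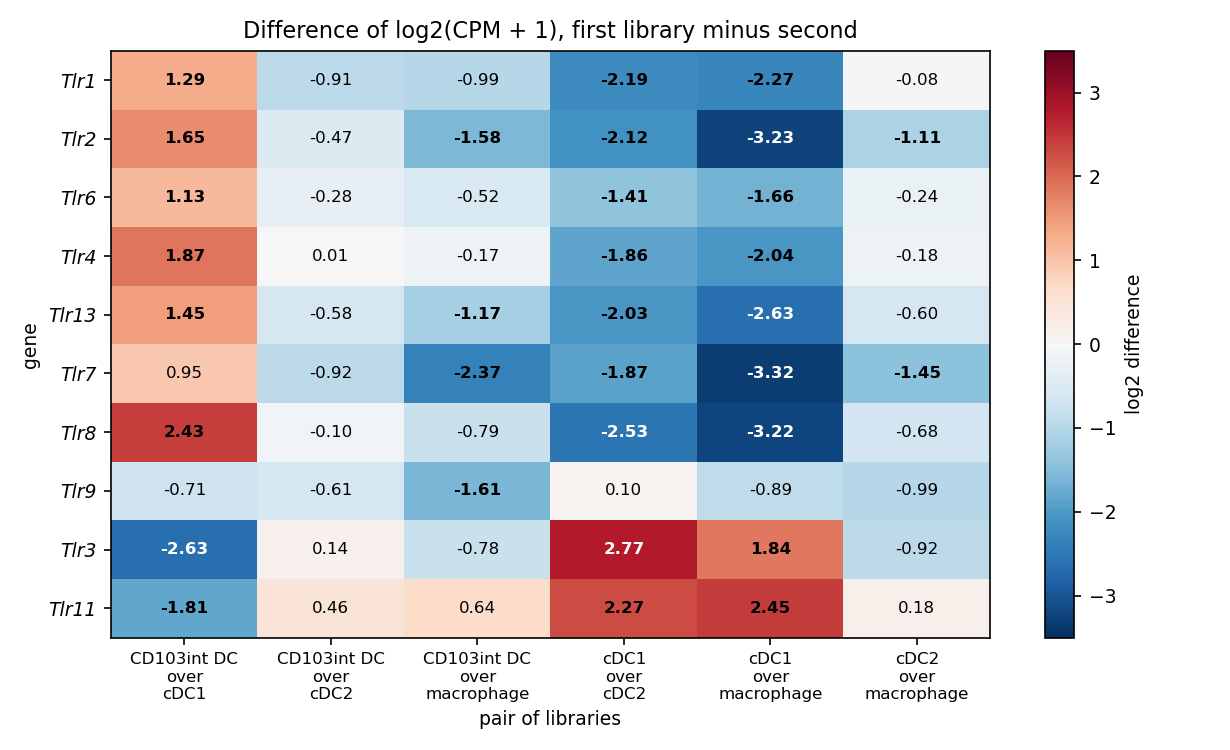
Difference of log2(CPM + 1) for each gene (rows) in each pair of libraries (columns, first library minus second), with values of at least 2-fold in bold. The column of the CD103int DC over cDC2 has no bold value, while that of cDC1 over macrophage runs from -3.32 (Tlr7) to 2.45 (Tlr11).

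The pairs without the CD103int DC showed how far cDC1 stood from the other libraries. In cDC1, 7 of 10 genes were at least 2-fold lower than in cDC2 (10.6% of 13021 genes), and 2 at least 2-fold higher (8%). The same counts, 7 lower (14.3% of 12927 genes) and 2 higher (11.4%), held for cDC1 against macrophages. In both pairs the 7 were Tlr1, Tlr2, Tlr4, Tlr6, Tlr7, Tlr8 and Tlr13, and the 2 were Tlr3 and Tlr11. These pairs share the cDC1 library. In cDC2, 2 of 10 genes, Tlr2 and Tlr7, were at least 2-fold lower than in macrophages (4.66% of 12671 genes) and none at least 2-fold higher (2.45%). Tlr9 lay just inside the limit at -0.99.

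Since longer transcripts yield more reads, members were compared with each other per kilobase of exon. Summed over the 10 genes, this level was 176 CPM per kilobase in the CD103int DC, 146 in cDC1, 253 in cDC2 and 462 in macrophages. Surface receptors (Tlr1, Tlr2, Tlr4 and Tlr6) made up 43.3% of it in the CD103int DC, 17.3% in cDC1, 43.0% in cDC2 and 41.2% in macrophages. Tlr2 ranked first and Tlr9 second in the CD103int DC, cDC2 and macrophages. In cDC1, Tlr9 ranked first with 46.7% of the family's sum, followed by Tlr3 with 14.2%. The shares of Tlr3 were 1.81% in the CD103int DC, 1.14% in cDC2 and 1.22% in macrophages. Tlr2 exceeded its partner Tlr1 in all 4 libraries, by 3.36-fold in the CD103int DC, 2.65-fold in cDC1, 2.46-fold in cDC2 and 5.04-fold in macrophages. These shares do not depend on how the columns were scaled, but they do depend on the annotated exon lengths.

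**Figure D3:**
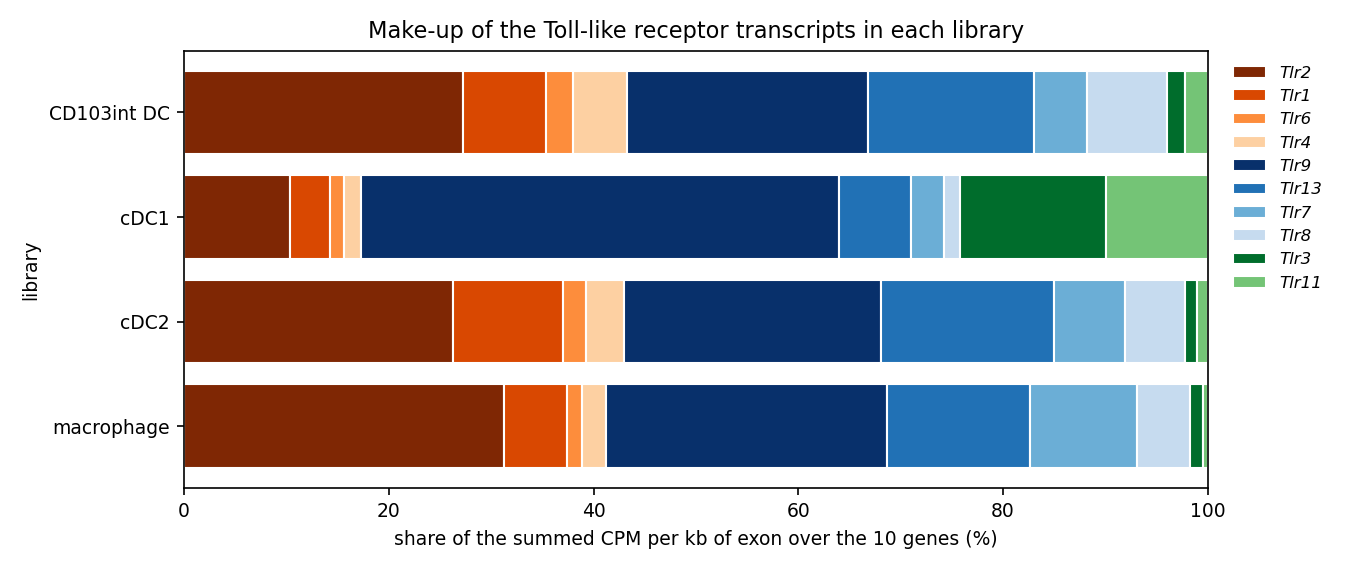
Share (%) of the summed CPM per kilobase of exon that each of the 10 genes took in each library (1 bar per library). Surface receptors, in brown and orange, fill 43.3% of the CD103int DC bar and 17.3% of the cDC1 bar, where Tlr9 alone takes 46.7%.

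Genes that fold and move the receptors lay within 2-fold over the libraries. None of 7 genes for chaperones and traffic was at least 2-fold apart in any of the 6 pairs. Among all genes, 33.9% were at least 2-fold apart between their highest and lowest library. Per pair and direction, 0.986% to 14.3% passed the limit. Unc93b1, which carries endosomal receptors out of the endoplasmic reticulum, stood at 420.5 CPM in the CD103int DC, 277 in cDC1, 492 in cDC2 and 460.4 in macrophages. Hsp90b1, the chaperone gp96, had 618 CPM in the CD103int DC, 645 in cDC1, 512 in cDC2 and 562 in macrophages.

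Genes for proteases that cleave endosomal receptors were lower in cDC1. All 5 genes of this list in the CD103int DC exceeded cDC1 by 2-fold or more (10.1% of all genes), with a median of 1.79. Of the 5, 1, Lgmn, lay over 2-fold below cDC2 (0.986% of all genes). None passed the limit against macrophages, where 5.17% of all genes did as higher and 6.62% as lower. Lgmn, the asparagine endopeptidase legumain, had 449 CPM in the CD103int DC, 104 in cDC1, 939 in cDC2 and 886 in macrophages. Ctsb, cathepsin B, had 1534 CPM in the CD103int DC, 442 in cDC1, 2442 in cDC2 and 2570 in macrophages. Ctsl, cathepsin L, had 55.9, 21.2, 72.5 and 76.0 CPM in these libraries. The cathepsin K gene Ctsk had 15.6 CPM in the CD103int DC, a listed value of 0 for cDC1, 28.7 CPM in cDC2 and 14.8 CPM in macrophages.

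Adaptor and kinase genes that passed the 2-fold limit were mostly lower than in macrophages. In cDC1, 3 of 5 adaptors (Tirap, Ticam1 and Pik3ap1) and 5 of 16 kinases and ubiquitin ligases (Irak2, Traf3, Tbk1, Ikbke and Peli1) were lower than in macrophages, against 14.3% of all genes. In cDC2, 1 of 5 adaptors (Pik3ap1) and 3 of 16 kinases and ligases (Irak2, Traf3 and Peli1) were, against 4.66% of all genes. Of 5 measured adaptor genes, 1 (Ticam1, the adaptor of Tlr3) was higher by the 2-fold rule in the CD103int DC against cDC1 (10.1% of all genes). Ticam1 stood at 37.5 CPM in the CD103int DC, 18.1 in cDC1, 32.0 in cDC2 and 39.3 in macrophages, so that the library with most Tlr3 held least of its adaptor. Tirap, the bridging adaptor of Tlr2 and Tlr4, had 11.7, 6.79, 12.6 and 16.6 CPM in the same libraries. Myd88 had 130.2, 133, 151 and 261 CPM in the same libraries. Pik3ap1, an adaptor that links these receptors to phosphoinositide 3-kinase, was 3.53-fold (3.47 to 3.60) lower in the CD103int DC than in macrophages, at 251 against 886 CPM. Among 16 kinases and ubiquitin ligases, Ikbke, a kinase of interferon regulatory factors, was at least 2-fold above cDC1 in the CD103int DC, at 20.7 against 2.26 CPM, and none was below (10.1% and 6.77% of all genes). Against cDC2 none of the 16 passed the limit, where 1.95% of all genes did as higher and 0.986% as lower. Against macrophages 1 of 5 adaptors (Pik3ap1) and 3 of 16 kinases and ligases were lower in the CD103int DC, where 6.62% of all genes were. The 3 were Irak2, a kinase of the Myd88 complex, Ikbke and Peli1, a ubiquitin ligase that acts with these kinases. Tbk1, the relative of Ikbke, had 42.7, 28.7, 48.5 and 83.4 CPM in the CD103int DC, cDC1, cDC2 and macrophages.

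Of 9 transcription factor genes, the CD103int DC held 2, Nfkb1 and Irf8, at least 2-fold below cDC1 (6.77% of all genes). Irf8, a factor needed for cDC1, had 193 CPM in the CD103int DC, 704 in cDC1, 226 in cDC2 and 268 in macrophages. None of the 9 passed the limit against cDC2, where 1.95% of all genes did as higher and 0.986% as lower. Against macrophages 4 were lower in the CD103int DC (6.62% of all genes), Nfkb2, Rel, Irf7 and Irf1. Irf7, which drives interferon genes downstream of Tlr7 and Tlr9, had 366, 473, 636 and 1648 CPM in the CD103int DC, cDC1, cDC2 and macrophages.

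Some inhibitors of the pathway were low in cDC1, as most receptors were. Of 10 inhibitor genes, the CD103int DC held 5 at least 2-fold above cDC1 (Irak3, Tnfaip3, Nfkbia, Socs1 and Dok3), and 1, Sigirr, at least 2-fold below it, against 10.1% and 6.77% of all genes. Irak3, a kinase relative that blocks the Myd88 complex, had 20.9 CPM in the CD103int DC, 5.04 in cDC1, 25.7 in cDC2 and 42.0 in macrophages. Nfkbia, which holds NF-kappaB in the cytoplasm, had 271, 97.5, 219 and 430.3 CPM. Sigirr, an inhibitory relative of the interleukin-1 receptor, ran the other way, at 4.88, 11.6, 2.87 and 3.35 CPM. None of the 10 passed the limit between the CD103int DC and cDC2, where 1.95% of all genes did as higher and 0.986% as lower. Against macrophages 3 were lower in the CD103int DC (6.62% of all genes), Socs1, Trafd1 and Dok3.

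Many genes that receptor signalling can induce were low in cDC1. Of 13 with at least 1 CPM in either library, the CD103int DC held 10 at least 2-fold above cDC1 (10.1% of all genes) and none below (6.77%), with a median of 1.66. Il12b, a subunit gene of interleukin-12, ran the other way, at 1.46 CPM in the CD103int DC, 3.59 in cDC1, 1.38 in cDC2 and 0.770 in macrophages. The chemokine gene Cxcl2 was 13.3-fold (12.4 to 14.3) higher, at 228 against 17.1 CPM, and Tnf 8.42-fold (7.43 to 9.56), at 47.2 against 5.61 CPM. Nos2, the inducible nitric oxide synthase gene, stood at 26.6 CPM in the CD103int DC, 2.08 in cDC1, 41.4 in cDC2 and 19.6 in macrophages. Against cDC2, 1 of 14, Il6, was at least 2-fold higher in the CD103int DC (7.75 against 1.81 CPM, 1.95% of all genes). Ccl5 was at least 2-fold lower (10.5 against 26.4 CPM, 0.986% of all genes). Both were named after their values were seen. Against macrophages 7 of 14 were lower in the CD103int DC (6.62% of all genes), among them Cxcl10, an interferon-induced chemokine gene, at 112 against 605 CPM. Many other signals induce these genes, and whether the receptors were engaged was not measured.

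**Figure D4:**
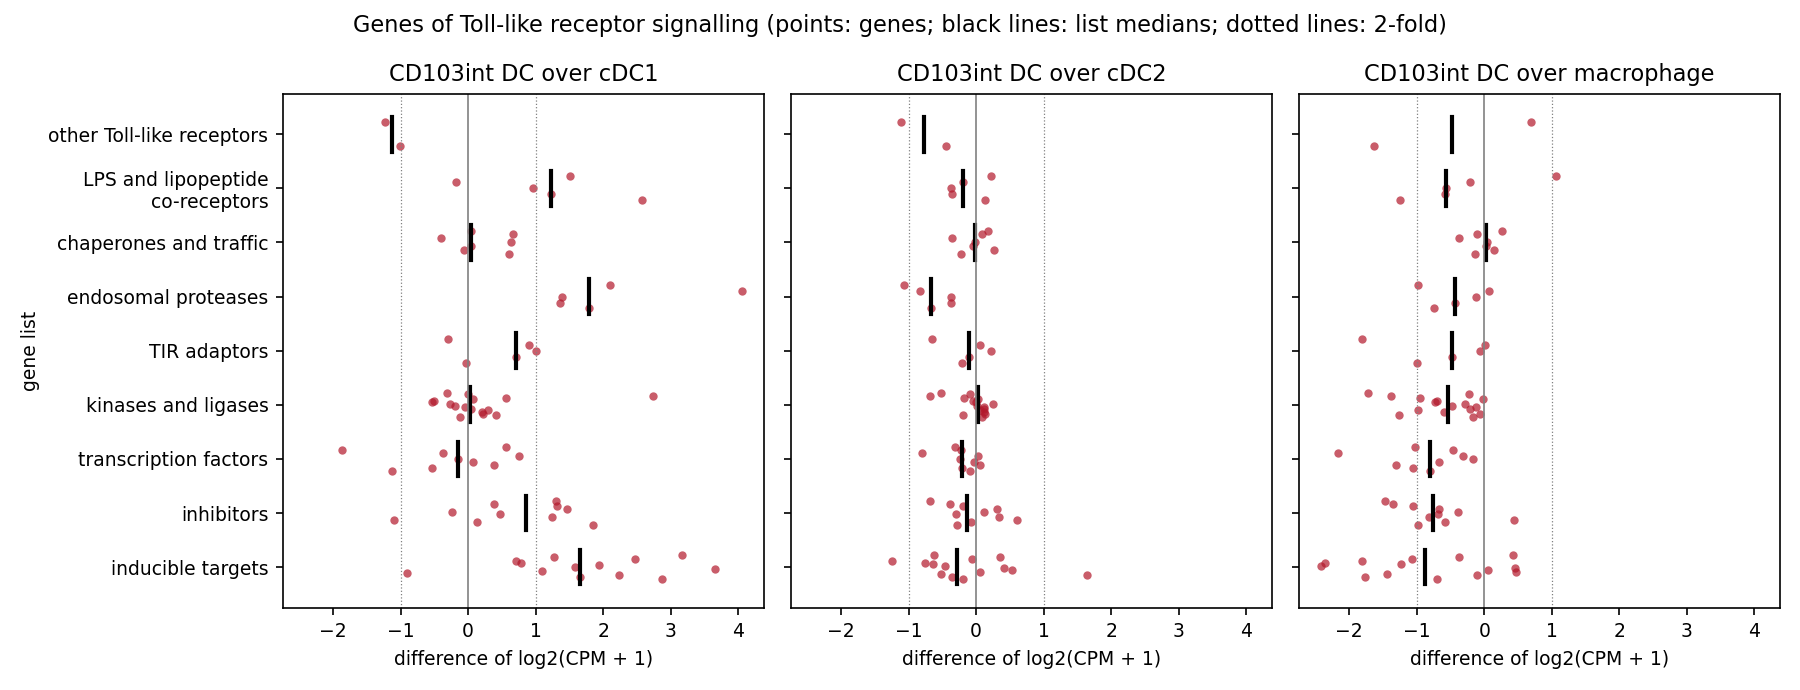
Difference of log2(CPM + 1) of the CD103int DC over cDC1, cDC2 and macrophages (3 panels) for genes of the receptor pathway with at least 1 CPM in either library (points, by list), with list medians as black lines and 2-fold as dotted lines. Inducible targets have a median of 1.66 over cDC1 and of -0.28 over cDC2.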

How the data were processed

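RNA of 4 sorted populations was measured by bulk sequencing, 1 library each. A column kit, DNase I and a directional library kit were used, per the labels' protocols. The authors deposited 1 table of an expression signal, which its name describes as filtered CPM with TMM scaling (trimmed mean of M values). Its values were used as deposited, and since 1 column summed to over 1000000, they are not plain CPM. For the aligner, counter and genome build, the sources used here give no entry. Each of the 13976 identifiers and its symbol matched GENCODE M21 (GRCm38), from which coordinates, exon lengths (union of exons) and biotypes were taken.

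The value of 1 read was found as the step of which most values were whole multiples. Between 70.6% and 79.0% of the values above 0 were whole, at a tolerance of 0.001 of the step. Because these are estimated reads and each population had 1 library, no count test was run and no p-value is given. Intervals are 95% exact Poisson (levels) or conditional binomial (ratios) on estimated reads. They cover counting error only, and amplified reads are not independent molecules. Differences were taken on log2(CPM + 1), which understates those of low genes, and printed folds are ratios of CPM. All 6 pairs of libraries were compared.

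Members, gene lists, motifs and thresholds were chosen with earlier results of these data known. All members are named. Up to 4 genes of a pathway list are named by rule, those with the largest range over the libraries among genes at least 2-fold apart in a pair with at least 10 CPM. Other list genes in the text were added after their values were seen. Similar profiles are the 3 nearest genes with at least 10 CPM and a range of at least 0.5 of the member's. Markers of T cells, NK cells and fibroblasts summed to at most 12.1, 9.70 and 43.7 CPM in any library. Epithelial markers, nearly all Cdh1, summed to 195.5, 419, 119 and 89.0 CPM in the CD103int DC, cDC1, cDC2 and macrophages. The cDC2 markers summed to 1966, 1259, 1654 and 1564 CPM in these libraries, mostly Sirpa and Mgl2. By the 2-fold rule, 3 of these 6 markers were higher in cDC1 than in cDC2 (8% of all genes) and 2 were lower (10.6%). Cd209a, Cd7 and Irf4 of that list had 257, 97.1 and 152 CPM in cDC1 against 31.5, 11.0 and 38.0 CPM in cDC2. Clec4a2 and Sirpa went the other way, at 15.6 and 399.7 CPM in cDC1 against 144 and 1062 CPM in cDC2. Mgl2 had 337 CPM in cDC1 and 368 CPM in cDC2. The counting rule was tested on simulated data. Python 3.11.15, numpy 2.4.6, pandas 2.3.3, scipy 1.17.1 and matplotlib 3.10.9 were used.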

Additional observations from a re-analysis of the deposited data

How the results depend on the processing

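Alternatives were a pseudocount of 0.1, no minimum level or one of 10 CPM, 3 other column scalings and a 4-fold limit. Of 88 recomputed counts, 79 stayed within 1.5 times of the reported one, and no called difference of a single gene changed its direction. Part of this was fixed beforehand. All members lay above 1 CPM in every library, so leaving out the minimum could not change a count. A count of 0 at 2-fold stays 0 at 4-fold. A pseudocount cannot turn a difference round. The scalings moved all-gene medians to at most 0.34, too little to turn a called difference of 1 or more. For cDC2 against macrophages, the 2 lower genes became 1 with columns rescaled to equal totals or to equal protein-coding totals (Tlr7) and 0 at 4-fold. Of all genes, 2.4%, 2.93% and 0.489% were lower in these settings. At 4-fold, the CD103int DC against cDC1 had 1 higher gene (Tlr8, 2.41% of all genes) and 1 lower (Tlr3, 1.51%). Against macrophages it had 1 lower (Tlr7, 0.943%). For cDC1 at 4-fold, 4 genes were lower than in cDC2 (2.93% of all genes) and 1 was higher than in macrophages (2.09%). The count of 10 genes with a 2-fold range became 4 without the cDC1 library (13.9% of all genes), an alternative chosen after seeing the data. Differences under 2-fold changed sign in 9 cases, each a pair of libraries under 1 scaling, all for Tlr1, Tlr4 and Tlr6. Equal totals moved the median of all genes against macrophages to 0.24 for the CD103int DC, 0.34 for cDC1 and 0.25 for cDC2. No paired analysis was possible because each population had 1 library. Replicate error is unknown, and the counting intervals cover none of it.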
